A study of Sus scrofa with 9 samples.

Results

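The circular RNAs of 2 host genes of cAMP signalling, PRKAR1A and CREB1, were followed through porcine MII oocytes, PN embryos and mature sperm. They were taken as every circRNA whose host gene is given as PRKAR1A or CREB1, which yielded 2 of the 3071 circRNAs counted. CircRNA-1881 was the 1 circle of PRKAR1A, and circRNA-1985 was the 1 circle of CREB1. Of the 1727 host genes in the table, 1099 likewise gave 1 circRNA and 628 gave more.

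MII oocytes (eggs at metaphase of the second meiotic division), PN embryos (1-cell embryos with separate pronuclei) and sperm were each sequenced as 3 libraries. The methods describe oocytes of postpubertal Long White gilts that were matured in vitro with gonadotropins (eCG, hCG and FSH) and growth factors. PN embryos were made by IVF of oocytes matured in this way. According to the methods, RNA came from 10000 MII oocytes freed of cumulus cells, from 10000 PN embryos collected when 18 h of IVF and culture had passed, and from fresh sperm of Large White boars aged 2 to 3 years, while the semen for IVF came from Landrace boars. Sperm on the surface of the fertilized eggs were removed by vortexing, and an embryo library holds the RNA of any sperm that stayed attached together with that of the embryo. Sperm replicates 1 and 3 held the same count for every circRNA and entered as 1 sample, named replicate 1 here, so that 8 distinct libraries remained, 3 of MII oocytes, 3 of PN embryos and 2 of sperm.

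A circRNA is a closed loop made by back-splicing, in which the 3′ end of an exon is joined to an upstream 5′ end instead of to the next exon. PRKAR1A encodes the type I alpha regulatory subunit of protein kinase A (PKA), which holds the catalytic subunits inactive until cAMP binds to it. CREB1 encodes a transcription factor that PKA phosphorylates, after which it recruits the coactivators CREBBP and EP300. In sperm, cAMP and PKA are known for their role in motility and capacitation, and in oocytes a high cAMP level holds meiosis at prophase. A circle from such a gene reports back-splicing of its transcript, and says nothing by itself about the level of the mRNA or protein. In the RefSeq annotation of Sscrofa11.1, PRKAR1A lies at chr12:11662344-11681490 and CREB1 at chr15:110705548-110773037. The positions of the circles themselves within these genes, and the linear transcripts of both hosts, were not analysed here.

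The primers designed in the study for these circles show how a loop is told from a linear transcript. Those below belong to circRNA-1881 and are written 5′ to 3′ on the strand of the RNA, so that reverse primers appear as their reverse complement. Capitals mark bases that the end of one primer shares with the start of another, 9 bases for the first pair and 6 for the second.

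convergent forward: tgatatttttgatgccaTGTTTCCGG
divergent reverse, reverse complement: TGTTTCCGGtttcctttattgctg
divergent forward: gagagactgttattcagcaAGGTGA
qPCR reverse, reverse complement: AGGTGAtgaaggggataacttct

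Convergent primers point toward each other on the linear exons, and divergent primers point away from each other, so that divergent primers yield a product from a loop and not from a linear copy of the exons. The site of the divergent reverse primer thus begins in the last 9 bases of the convergent forward primer, and the qPCR reverse primer begins with the 6 bases that end the divergent forward primer. These matches describe the primer letters, and their places in the gene were not analysed here. For circRNA-1985, no primer ends with the first 6 or more bases of another. Capitals mark the letters ATG in its convergent forward primer only. The divergent reverse primer, as its reverse complement, also holds ATG and is left in lower case.

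convergent forward: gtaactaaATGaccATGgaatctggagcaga
divergent forward: cccagccatcagttattcagtctc
divergent reverse, reverse complement: gtccatggagttattcaggcgg

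GC content ranged from 38.5% to 55% over the primers of circRNA-1881 and from 37.5% to 54.5% over those of circRNA-1985.

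CircRNA-1881 of PRKAR1A was among the most abundant circles of sperm and was not detected in MII oocytes. It had 1940 counts in sperm replicate 1 and 2393 in sperm replicate 2. It had 0 counts in each of the 3 MII oocyte libraries. In the 3 PN embryo libraries it had 0, 102 and 1 counts. Both sperm libraries were therefore above every other library, and PN embryo replicate 2 stood far above the remaining PN embryo libraries. In bulk samples such as these, fewer cells of a kind and less RNA per cell cannot be told apart.

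CircRNA-1985 of CREB1 was found in the same libraries, at a lower count in both sperm libraries and in PN embryo replicate 2. It had 442 and 75 counts in sperm replicates 1 and 2. It had 0 counts in each of the 3 MII oocyte libraries, and 0, 73 and 1 counts in the PN embryo libraries. Sperm replicate 2 and PN embryo replicate 2 thus held almost the same number of counts, and per 1000000 valid reads (those the study kept) they had 0.933 and 0.913.

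The total of circRNA counts sets the shares below. Counts summed over all circRNAs ranged from 22809 to 26200 per library in MII oocytes and PN embryos and were 155731 and 167851 in sperm. Valid reads per library were close to each other in all groups, and sperm held 1978 to 2089 circRNA counts per 1000000 valid reads and the other libraries 282 to 328. A count of 0 allows a share of up to 0.0124% to 0.0132% of the circRNA counts in an MII oocyte library and of up to 0.0130% in PN embryo replicate 1 (3 counts of the total). These limits and the Wilson 95% intervals below cover counting error only, since PCR reads without molecular identifiers are not independent molecules.

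CircRNA-1881 took 1.25% of the circRNA counts in sperm replicate 1 (95% interval 1.19 to 1.3%) and 1.43% in sperm replicate 2 (1.37 to 1.48%), or 1.34 ± 0.127% (SD, n = 2). It took 0.389% (0.321 to 0.472%) in PN embryo replicate 2 and 0.00408% (0.00072 to 0.0231%) in replicate 3, and the PN embryo mean was 0.131 ± 0.224% (SD, n = 3). The single count in replicate 3 lies under the limit that a count of 0 allows. Per 1000000 valid reads, circRNA-1881 had 27.2 ± 3.63 counts in sperm (SD, n = 2) and 0.429 ± 0.733 in PN embryos (SD, n = 3).

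CircRNA-1985 took 0.284% (0.259 to 0.311%) in sperm replicate 1 and 0.0447% (0.0357 to 0.056%) in sperm replicate 2, with a mean of 0.164 ± 0.169% (SD, n = 2). It took 0.279% (0.222 to 0.350%) in PN embryo replicate 2 and 0.00408% in replicate 3, with a mean of 0.0942 ± 0.160% (SD, n = 3). Its share in PN embryo replicate 2 lay within the interval of sperm replicate 1 and above that of sperm replicate 2. The sperm libraries differed 6.35-fold for circRNA-1985 and 1.14-fold for circRNA-1881. Per 1000000 valid reads, circRNA-1985 had 3.27 ± 3.31 counts in sperm (SD, n = 2) and 0.308 ± 0.523 in PN embryos (SD, n = 3).

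**Figure D1:**
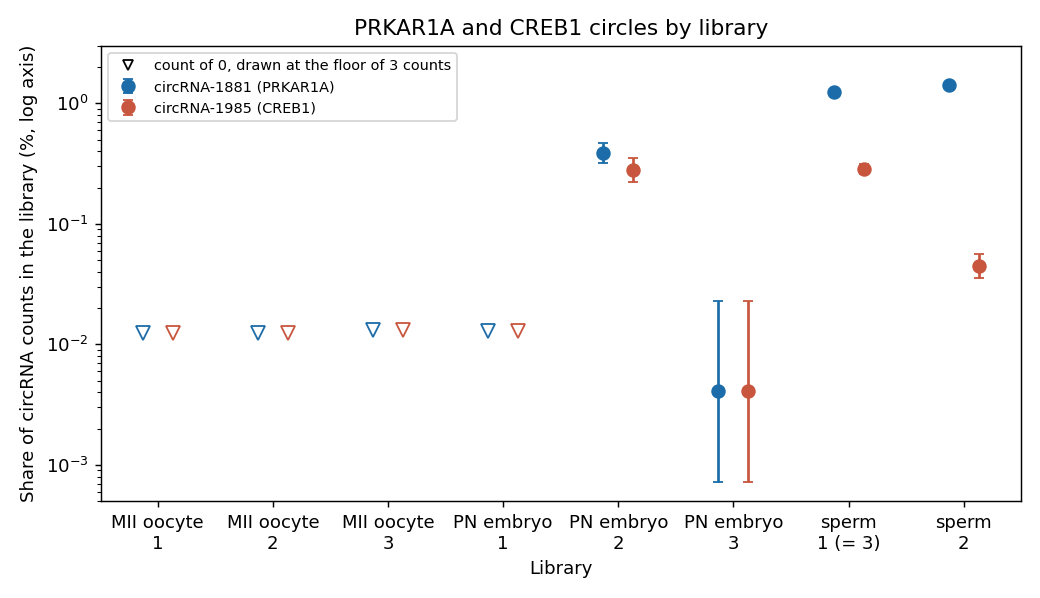
Share of all circRNA counts (%, log axis) for circRNA-1881 and circRNA-1985 in each of the 8 distinct libraries, with Wilson 95% intervals; open triangles mark a count of 0 and stand at the floor of 3 counts. Both circles are above the floor in PN embryo replicate 2 and in both sperm libraries, and circRNA-1881 reaches 1.25% and 1.43% in sperm.

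By rank, circRNA-1881 was number 7 of 562 circRNAs above 0 in sperm replicate 1 and number 6 of 568 in sperm replicate 2. By mean share it was number 5 of the 1004 circRNAs found in sperm. The next above were circRNA-2050 of TESK2, a testis-associated kinase, at 1.52 ± 1.09%, and circRNA-63 of ERI3, an exoribonuclease family member, at 1.98 ± 0.640% (SD, n = 2 each). The next below were circRNA-1330 of RRP1, a ribosomal RNA processing factor, at 1.3 ± 0.0245%, and circRNA-1282 of PPA2, the mitochondrial pyrophosphatase, at 1.27 ± 0.0150% (SD, n = 2 each). CircRNA-1881 differed from TESK2, RRP1 and PPA2 circles by no more than the larger of the SDs compared.

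CircRNA-1985 was number 119 in sperm replicate 1, number 352 in sperm replicate 2 and number 189 by mean share. Its neighbours by mean share, the circles of UHRF1BP1L and NTNG1 above and of NFAT5 and SHQ1 below, lay between 0.163% and 0.166%. Each of these 4 was at 0 in 1 of the sperm libraries, while circRNA-1985 was above 0 in both.

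In PN embryo replicate 2, circRNA-1881 was number 38 and circRNA-1985 number 91 of 532 circRNAs above 0. In PN embryo replicate 3, both shared number 419 of 593 with all other circRNAs of 1 count, 175 in all. By mean share over PN embryos they were number 124 and number 250 of 1308. Without PN embryo replicate 2, both were number 840, so that their rank in PN embryos rested on that library, and without replicate 3 circRNA-1881 was number 78.

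**Figure D2:**
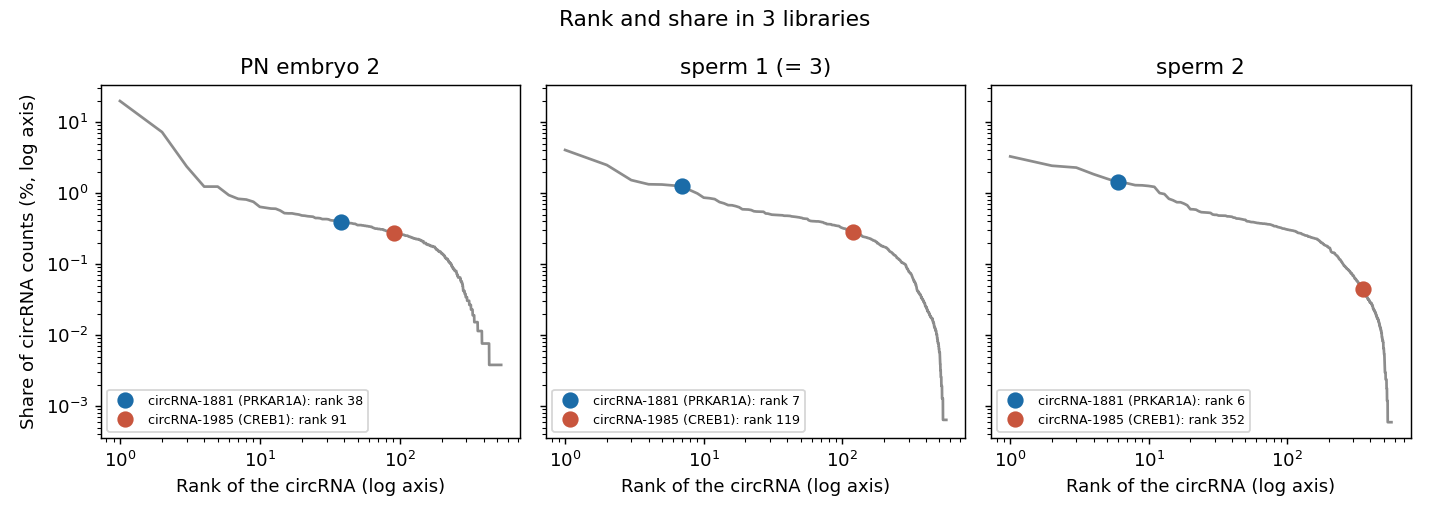
Share of circRNA counts (%, log axis) against rank (log axis) for every circRNA above 0 in PN embryo replicate 2 and the 2 distinct sperm libraries, with circRNA-1881 and circRNA-1985 marked. The PRKAR1A circle ranks 38, 7 and 6, and the CREB1 circle 91, 119 and 352.

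Detection in both sperm libraries was uncommon. Of the 1004 circRNAs found in sperm, 126 (12.5%) were above 0 in both libraries, and both circles were among them. A level of at least 1000 counts was reached by 26 circRNAs in a sperm library and by 10 in both, circRNA-1881 included. Of the 126, 84 were at 0 in every MII oocyte library, 27 of these were above 0 in at least 1 PN embryo library, and 4 in at least 2. These 4 were circRNA-1881, circRNA-1985, circRNA-1974 of ZSWIM6 and circRNA-1636 of ZPBP, a zona pellucida binding protein of the sperm head. The sperm counts of circRNA-1636 were 376 and 273, and its PN embryo counts 1, 0 and 1. Those of circRNA-1974 were 762 and 2682, and 0, 7 and 3. For circRNA-1881 and circRNA-1985, PN embryo replicate 3 counted here through 1 count each. The study had shortlisted circRNA-1881, circRNA-1985 and circRNA-1974 from this sequencing. Its screen sought circRNAs high in sperm and PN embryos and not in MII oocytes. The place of these circles among the 4 therefore repeats that choice and is no separate evidence.

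The PN embryo libraries differed in these circles. The 84 circRNAs found in both sperm libraries and at 0 in MII oocytes had 10, 344 and 25 counts in the 3 PN embryo libraries, or 0.0434%, 1.31% and 0.102%. Without circRNA-1881 and circRNA-1985 the counts were 10, 169 and 23. In wider sets replicate 2 stood less apart, with 1.88%, 4.23% and 4.09% for the 126 circRNAs of both sperm libraries, and 1.78%, 2.93% and 0.988% for the 864 found in any sperm library and at 0 in MII oocytes. In PN embryo replicate 2, 4 of the 84 had at least 10 counts, both circles included, and in the other PN embryo libraries 0 did. The part of this library's makeup in the PN embryo values of the 2 circles was not tested.

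The comparison of sperm with MII oocytes asks which circles a sperm carries that the egg lacks. By edgeR's quasi-likelihood test, 19 of 486 circRNAs passed (3.91%), 8 of them higher (1.65%) and 11 lower in sperm (2.26%). To pass, the log2 fold change had to be 1 or more in size and the p adjusted by Benjamini-Hochberg under 0.05, and 169 (34.8%) had an unadjusted p under 0.05. CircRNA-1881 was 1 of the 8 (edgeR adjusted p = 0.0173, 11th smallest p of 486). Its mean share in sperm was at least 102-fold higher than in MII oocytes, taking 3 counts in the MII oocyte library with the fewest counts as the limit. CircRNA-1985 was at least 12.5-fold higher by mean share and at least 3.40-fold higher in sperm replicate 2 alone, and did not pass (edgeR adjusted p = 0.105). Both circles were at 0 in MII oocytes and entered the test only because both sperm libraries were above 0, so that the separation of the groups, found for 23% of the circRNAs tested, was fixed for them by the filter. Exact permutation of the libraries' shares (two-sided) gave p = 0.2 for each, the smallest p that 2 libraries against 3 allow. The call for circRNA-1881 was lost without MII oocyte replicate 1 (adjusted p = 0.0644, edgeR), without MII oocyte replicate 2 (0.055) and after TMM normalization (0.0864), and was kept with DESeq2 (1.44e-08), without a filter (0.000336), with all groups in 1 fit (0.0017) and when scaled to valid reads (0.0151). The call was also lost with the replicate number as a block (adjusted p = 0.775, edgeR). Whether libraries of the same number shared a pool or a day is not given in the labels. CircRNA-1881 could not be tested with either sperm library alone. CircRNA-1985 passed when counts were scaled to valid reads (adjusted p = 0.0241, edgeR) and with DESeq2 (0.0173). The split of calls over all circRNAs moved as well, with 80 higher and 11 lower in sperm when scaled to valid reads (edgeR). The split was 0 higher and 10 lower with TMM (edgeR), and 77 higher and 213 lower with DESeq2. Without MII oocyte replicate 1 or 2, 0 circRNAs passed (edgeR). The labels do not say whether libraries came from separate pools or animals, and p-values then measure only the spread between these samples.

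Sperm were compared with PN embryos to see how the level in the embryo stands to that in sperm. The mean share of circRNA-1881 was 10.2-fold higher in sperm, with every sperm library above every PN embryo library, a separation found for 23.4% of the 453 circRNAs tested. The log2 fold change was 3.35 (standard error 2.31) and did not pass (adjusted p = 0.239, edgeR), while 7 of the 453 passed by edgeR (1.55%), with 7 lower (1.55%) and 0 higher in sperm (0%). At an unadjusted p under 0.05 edgeR gave 117 (25.8%), and DESeq2 called 48 higher. By mean count the ratio of sperm to PN embryos was 63.1, and scaled to valid reads the log2 fold change was 5.98 (adjusted p = 0.16, edgeR). Against PN embryo replicate 2 alone, the sperm mean was 3.43-fold higher. Without that library the PN embryo mean was 0.00204%, under the limit that a count of 0 allows, and the adjusted p was 0.115 (edgeR). For circRNA-1985 the log2 fold change was 0.80 (standard error 2.66, adjusted p = 0.799, edgeR), and its sperm and PN embryo libraries overlapped. The sign of this difference turned after TMM normalization (log2 fold change -0.42), with DESeq2 (-0.20) and without sperm replicate 1 (-1.07). Scaled to valid reads it was 3.40 (adjusted p = 0.26, edgeR), with a ratio of mean counts of 10.5. Without PN embryo replicate 2 the PN embryo mean of circRNA-1985 was likewise 0.00204%, under the limit, and the adjusted p was 0.145 (edgeR). Exact permutation tests of the shares gave p = 0.2 for circRNA-1881 and p = 0.4 for circRNA-1985 (two-sided; smallest possible 0.2).

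PN embryos were compared with MII oocytes to find circles that appear after fertilization. Neither circle passed, with an edgeR adjusted p of 0.386 for each, and 0 of the 675 circRNAs tested did (0%; 16, or 2.37%, had an unadjusted p under 0.05 by edgeR, and DESeq2 called 0). In PN embryo replicate 2, the share of circRNA-1881 was at least 29.6-fold and that of circRNA-1985 at least 21.2-fold higher than the limit in MII oocytes. The groups overlapped for both, since PN embryo replicate 1 was at 0 as well, while 14 circRNAs (2.07%) were higher in every PN embryo library. The exact permutation p was 0.4 for each (two-sided; smallest possible 0.1). When PN embryo replicate 2 or replicate 3 was left out, each circle was above 0 in 1 library and could not be tested.

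The balance between the 2 circles differed from library to library. CircRNA-1985 made up 41.7% of their summed counts in PN embryo replicate 2 (73 of 175, 95% interval 34.7 to 49.1%), 18.6% in sperm replicate 1 (442 of 2382, 17.0 to 20.2%) and 3.04% in sperm replicate 2 (75 of 2468, 2.43 to 3.79%). The PRKAR1A circle thus had 1.40, 4.39 and 31.9 counts for each count of the CREB1 circle. None of these 3 intervals overlap, while in PN embryo replicate 3 the summed count was 2 (1 of each circle), too low to give a balance. They compare libraries and not conditions, and the sperm libraries differed from each other in this balance as well.

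Of 90 genes listed for cAMP, PKA and CREB signalling, 18 were hosts of 20 circRNAs. Of the 18 circles other than circRNA-1881 and circRNA-1985, 5 were above 0 in at least 2 libraries, close to the 28.6% of all circRNAs that were. The summed share of these 18 ranged from 0.103% to 0.475% in MII oocytes, from 0.239% to 0.748% in PN embryos and from 0.364% to 1.69% in sperm. Of the pathway circles other than circRNA-1881 and circRNA-1985, 0 of 1 tested passed between sperm and MII oocytes, 0 of 4 between sperm and PN embryos and 0 of 2 between PN embryos and MII oocytes, where 3.91%, 1.55% and 0% of all circRNAs tested passed by edgeR. With DESeq2, and with circRNA-1881 and circRNA-1985 counted, 3 of 3 passed between sperm and MII oocytes and 1 of 6 between sperm and PN embryos, where 290 of 486 and 253 of 453 of all circRNAs did.

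At the head of the pathway, 0 of 18 listed receptors, G proteins and adenylyl cyclases were hosts of a circRNA. Of the phosphodiesterases, which break down cAMP, PDE8A had 463 and PDE10A 306 counts in sperm replicate 2 alone. PDE3A, the phosphodiesterase of the oocyte, had 13 counts in MII oocyte replicate 1 alone, and PDE1C had 1 and 46 counts in MII oocyte replicates 1 and 2. Of 9 listed PKA subunits and inhibitors, PRKAR1A was the only host.

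Among the anchoring proteins, which tether PKA to sites in the cell, AKAP6 had 2 circles, with 906 and 537 counts in sperm replicate 2, 0 in sperm replicate 1 and, for the first, 1 in PN embryo replicate 3. AKAP10 had 68 counts in PN embryo replicate 2 and 1 in replicate 1, and AKAP7 and AKAP11 had 3 counts each in MII oocyte replicate 2. RAPGEF4, a cAMP-activated exchange factor independent of PKA, had 105 counts in PN embryo replicate 3 from 1 circle and 11 in MII oocyte replicate 1 from another. RAPGEF2 had 60 counts in PN embryo replicate 2.

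Downstream, circles of the CREB coactivators had 630 counts in sperm replicate 2 and 1 in PN embryo replicate 2 for CREBBP, and 67 in PN embryo replicate 2 for EP300. SIK3, a kinase of the CREB coactivators of the CRTC family, had 567 counts in sperm replicate 1 and 1 in PN embryo replicate 3. The CREB relatives ATF1 and ATF2 had 62 counts in MII oocyte replicate 2 and 54 in PN embryo replicate 1. RPS6KA3, a CREB kinase, had 34 counts in MII oocyte replicate 3. All other libraries were at 0 for these circles of CREBBP, EP300, SIK3, ATF1, ATF2 and RPS6KA3.

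**Figure D3:**
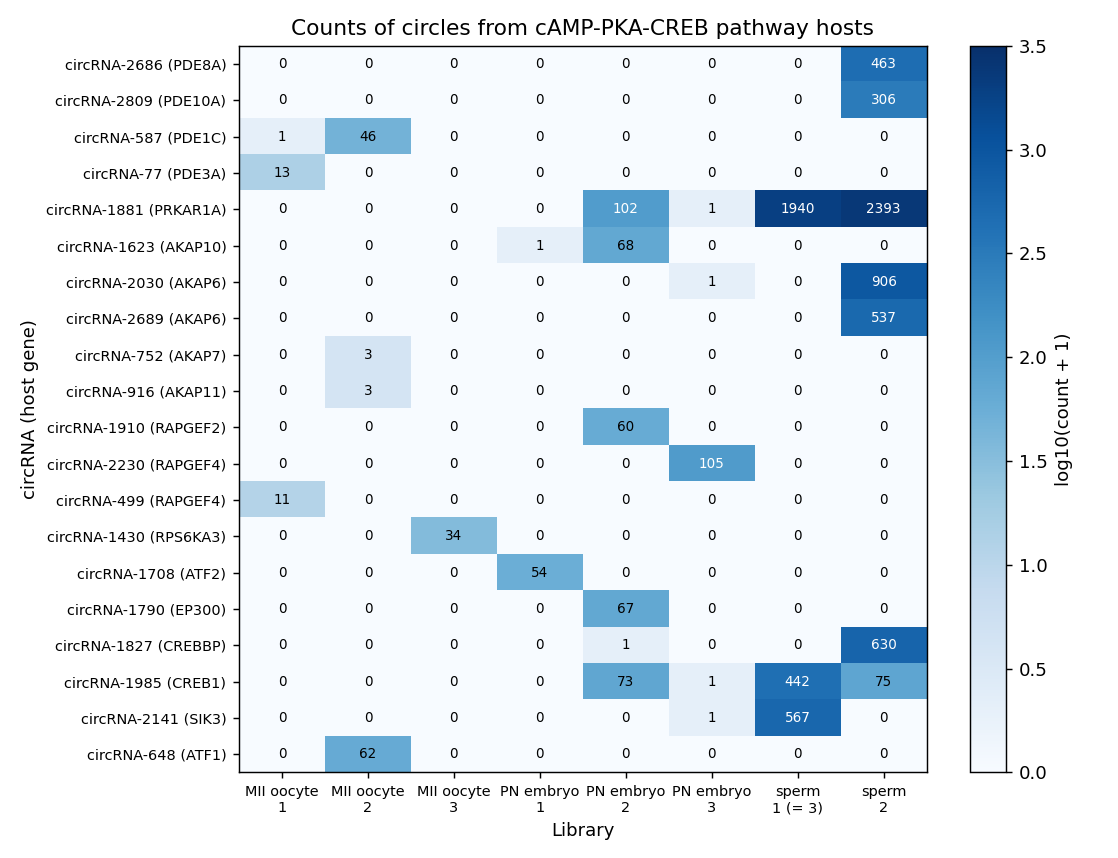
Counts of the 20 circRNAs from cAMP-PKA-CREB pathway hosts in the 8 distinct libraries, with color as log10(count + 1). Only the PRKAR1A and CREB1 circles are above 0 in both sperm libraries, and 13 of the other 18 are above 0 in 1 library each.

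The circRNAs with the most similar pattern were ranked by Pearson's r of log2(counts per 10000 circRNA counts + 1) over the 8 libraries, among 877 circRNAs above 0 in at least 2. These r values are descriptions over 8 points that fall into separate groups and differ by group in their total of circRNA counts, so no p is given. The 2 circles had r = 0.90 with each other. Nearest to circRNA-1881 were circles of ZSWIM6 (r = 0.92), DTL (0.90), POMT2 (0.88), SOCS7 (0.88) and LDHC (0.85). Nearest to circRNA-1985 were circles of TMEM43 (0.93), CIT (0.93), LDHC (0.91), ABI2 (0.90) and VMP1 (0.86). The circle of LDHC, the lactate dehydrogenase of male germ cells, was in both lists, with MII oocyte counts of 15, 0 and 7, PN embryo counts of 5, 116 and 7, and sperm counts of 648 and 270. The circles of TMEM43, CIT and VMP1 had 303, 116 and 53 counts in sperm replicate 1 and 1, 0 and 0 in replicate 2. The 9 circRNAs of both lists were highest among PN embryo libraries in replicate 2, as were circRNA-1881 and circRNA-1985, but they were chosen by r over the same libraries, replicate 2 included, which favours this pattern.

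**Figure D4:**
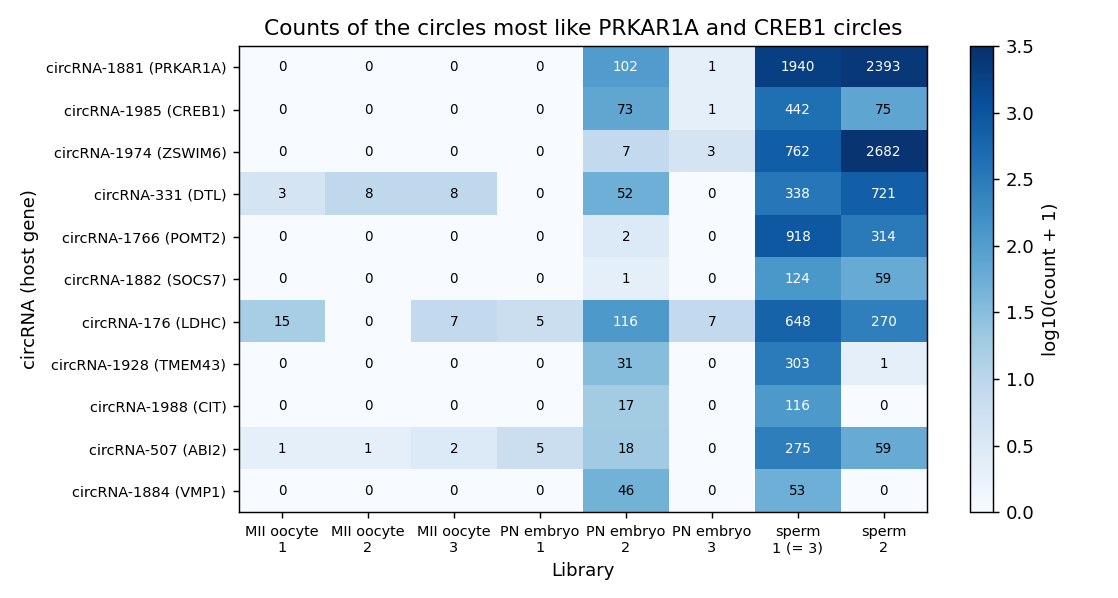
Counts of circRNA-1881, circRNA-1985 and the 9 circRNAs of other hosts most like them in the 8 distinct libraries, with color as log10(count + 1). In PN embryos, each of them has its highest count in replicate 2, from 1 to 116.

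Circles of cell type markers were too few to check the labels. Of 9 oocyte marker genes, 3 were hosts (ZP2 with 49 counts in MII oocyte replicate 1, NLRP5 with 78 and 1 and ZP3 with 2 in PN embryos), with 0 counts in sperm. Of 12 genes of sperm and late germ cells, ODF2 alone was a host (48 counts in sperm replicate 2). Of 7 cumulus or granulosa genes, CYP19A1 alone was a host (19 counts in sperm replicate 1), and 0 of 5 leukocyte genes and 0 of 4 epithelial genes were.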

How the data were processed

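RNA of MII oocytes, PN embryos and sperm was depleted of ribosomal RNA and sequenced from strand-specific libraries made with 8 PCR cycles. The authors deposited whole-number counts per circRNA without normalization, and these counts are the values used. The submitters' processing notes name cutadapt 1.9, TopHat2 2.0.4, HISAT2 2.0.4, StringTie 1.3.4d, edgeR and the build Sscrofa11.1; the circRNA caller is not given in the sources used here. The deposited tables of linear mRNA and lncRNA were not used here.

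Groups and replicates were taken from the sample labels. Pairs of groups were compared with edgeR 4.0.16 (R 4.3.3; glmQLFit and glmQLFTest) for circRNAs above 0 in at least 2 distinct libraries of the fit, scaled to the total circRNA count, with p-values adjusted over all circRNAs tested. The filter of 2 libraries lets circles found in sperm alone be tested. Standard errors are the log2 fold change divided by the root of the F statistic. The fitting code was also run on simulated counts with a fixed spread between libraries. That spread was not matched to these libraries, so the run gives no measure of error in the calls reported here. Shares, ranks, Wilson intervals, exact permutation tests and correlations were computed with scipy 1.17.1 and pandas 2.3.3 (Python 3.11.15). Valid reads per library were read from the study's sequencing summary, and primers from its primer lists. Alternatives were TMM, valid reads, filters of 1 or 3 libraries, DESeq2 1.42.0, the replicate number as a block, a joint fit of all groups, the identical columns as 2 samples and each replicate left out.

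The named circles were those of PRKAR1A and CREB1, their 5 most similar circRNAs, their 2 neighbours on each side by sperm share, and the pathway circles that passed or were among the 8 with the highest mean share in a group. The circles of the listed cell type markers were named as well, and circRNA-1636 of ZPBP was chosen after its values were seen. The members and lists were chosen with earlier results of these data known.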

Additional observations from a re-analysis of the deposited data

How the results depend on the processing

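In sperm against MII oocytes, 19 circRNAs passed (8 higher, 11 lower in sperm; edgeR). The count was 10 (0 higher) with TMM, 91 (80 higher) scaled to valid reads, 70 (17 higher) with a filter of 3 libraries, 290 (77 higher) with DESeq2, 66 (37 higher) with the identical columns as 2 samples, and 0 to 21 when 1 replicate was left out. It was 0 without MII oocyte replicate 1 or 2 (171 and 156 at an unadjusted p under 0.05). In sperm against PN embryos, 7 passed (0 higher), with 17 (6 higher) for TMM, 0 for valid reads (164 at an unadjusted p under 0.05, edgeR), 44 (15 higher) for 3 libraries, 13 (6 higher) without a filter, 253 (48 higher) with DESeq2, 21 (6 higher) for all groups in 1 fit, 57 (36 higher) with the identical columns as 2 samples, and 0 to 19 with a replicate left out. It was 0 without any 1 of the PN embryo replicates (93 to 147 at an unadjusted p under 0.05, edgeR), and 19 without sperm replicate 1 and 17 without sperm replicate 2. In PN embryos against MII oocytes it was 0, and 0 to 1 with a replicate left out, with 1 without PN embryo replicate 1. Scaling to valid reads moved the log2 fold change of a circRNA by a median of 1.74 in both comparisons with sperm, and TMM by a median of -2.18 against MII oocytes and -0.60 against PN embryos. For circRNA-1881 in sperm against MII oocytes, the edgeR adjusted p of 0.0173 became 0.0864 with TMM and 0.0481 to 0.0644 with an MII oocyte replicate left out. For circRNA-1985 in the same comparison, the adjusted p of 0.105 became 0.0241 with valid reads and 0.0173 with DESeq2, and was 0.0919 to 0.102 with an MII oocyte replicate left out. For circRNA-1985 in sperm against PN embryos, the sign turned with TMM (adjusted p = 0.914, edgeR), DESeq2 (0.946) and without sperm replicate 1 (0.84), within a range of 0.145 to 0.949 over replicates left out. For circRNA-1881 in sperm against PN embryos, that range was 0.115 to 0.400, and for both circles in PN embryos against MII oocytes 0.466 to 0.578. The cause of these changes was not tested. Where 1 library of a group remained, it was assumed to vary like the other group.

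With the replicate number as a block, 0 circRNAs passed in sperm against MII oocytes (12 at an unadjusted p under 0.05, edgeR) and 0 in sperm against PN embryos (3 at an unadjusted p under 0.05), and the adjusted p of circRNA-1881 in sperm against MII oocytes was 0.775. Between groups, libraries of the same number had deviations from their group means that correlated between -0.0447 and 0.0657. These values cannot decide whether a number marks a shared pool or day. With 2 distinct sperm libraries the sperm deviations mirror each other, and sperm replicate 1 is identical to replicate 3. DESeq2 gave no adjusted p for circRNA-1881 in PN embryos against MII oocytes, and with the filter of 3 libraries neither circle could be tested against MII oocytes.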
